A study of Mus musculus with 6 samples.

Results

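The actin filament genes described here are a fixed list of 54 genes that build, branch, cut, crosslink and anchor actin filaments, read in Ezh2 fl/fl and Ezh2 deficient lymph node T cells. Members were found as the probe sets whose only gene symbol in the platform annotation is 1 of the 54. This gave 120 probe sets for 48 genes, out of 45101 probe sets and 18193 named genes in all. No probe set had Actr2, Arpc1b, Arpc3, Cyfip1, Pak1 or Rock2 as its only symbol, so these genes were not analysed here. Of the 48 genes, 47 had at least 1 probe set bright enough to be tested, which left 113 tested probe sets. The exception was Wasf1, a WAVE protein, whose single probe set was dim, averaging 83.0 ± 15.8 over the Ezh2 fl/fl arrays and 88.8 ± 33.5 over the deficient ones (SD, n = 3).

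Actin monomers join into filaments, and T cells remodel these filaments when they crawl, spread on a partner cell or form an immune synapse. The Arp2/3 complex starts branches from existing filaments when the WAVE complex or its relatives switch it on. Formins and Ena/VASP proteins extend unbranched filaments, profilin and thymosins hold the supply of monomers, and cofilin cuts old filaments. LIM kinases switch cofilin off and slingshot phosphatases switch it on again. ERM proteins tie filaments to the plasma membrane. Ezh2 is the histone H3 lysine 27 methyltransferase of Polycomb repressive complex 2. It has also been linked to receptor-driven actin polymerisation in T cells through a cytosolic pool that binds Vav1. The comparison described here concerns the mRNAs of the actin genes.

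The study hybridised total RNA of mouse lymph node T cells to 6 single-colour whole-genome arrays. Of these, 3 were labelled Ezh2 fl/fl (a floxed Ezh2 gene, called controls below) and 3 Ezh2 deficient. No Cre driver, strain, age or sex is named. Nothing states that each array had its own mouse, so the p-values reflect the spread of these arrays alone, and some of it may be technical. Replicates are numbered within each group in the order of the records, which pairs none of them.

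The targeted gene was lower in the cells labelled deficient. The Ezh2 probe set gave intensities of 579, 684 and 801 in the controls and 282, 289 and 276 in the deficient arrays, so the groups did not overlap and 41.0% of the control mean was left. The log2 difference was -1.16 (SE 0.13, limma p = 7.83e-06, adjusted p = 0.0705 over all probe sets), and the exact two-sided permutation p was 0.10, the smallest that 3 arrays against 3 allow. Of 10 T cell markers 9 were named on the array, all 9 were tested, and their summed intensity ran from 75402 to 77668 in the controls and from 76682 to 77554 in the deficient arrays. Markers of other cells gave smaller sums. Over all 6 arrays, B cell markers summed to between 1208 and 1326, stromal markers to between 693 and 787, and endothelial markers to between 1296 and 1801, with overlapping groups. Macrophage and monocyte markers summed to 1066 to 1119 on the Ezh2 fl/fl arrays and 893 to 1047 on the deficient ones, without overlap. Each gene entered these sums with its brightest probe set. Csf1r was the macrophage marker with an unadjusted limma p under 0.05, at -0.42. Its other tested probe sets went the other way, at 0.29 and 0.12. The latter was almost as bright, with means of 298 (controls) and 336 (deficient) beside 371 and 264. The separation of the macrophage sums rests on that choice of probe set. Erythroid and platelet markers summed to 404 to 479 on the Ezh2 fl/fl arrays and 337 to 373 on the deficient ones, also without overlap, with Hba-a1 at -0.38 and under the same p. No marker of any list was at an intensity of 0. The dendritic cell markers summed to between 1157 and 2003 in the controls and between 1998 and 2716 in the deficient arrays. Cd74, Ccl22 and the actin bundler Fscn1 among them were higher at an unadjusted limma p under 0.05. The Fscn1 groups overlapped, with controls from 164 to 839. Itgax was at 0.02 and H2-Ab1 at 0.26, also with overlapping groups. Flt3 was too dim to be tested, with means of 84.4 (controls) and 46.9 (deficient). The part of these markers in the values below was not tested. In whole T cell samples, fewer cells of a type and less RNA per cell cannot be told apart. The first principal component set Ezh2 fl/fl replicate 1 apart (coordinate -41.4 against 1.47 to 15.0 on the others), and results that rest on it are given with and without it. The control probe sets of Actb itself gave a ratio of 3′ to 5′ signal between 1.16 and 1.21 on every array.

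As a set, the actin mRNAs were close to equal in the 2 groups. By limma 0 of the 113 member probe sets passed an adjusted p under 0.05, where 1 of all 27022 tested probe sets (0.0037%) did. At an unadjusted p under 0.05, 5 member probe sets (4.42%) were lower and 2 (1.77%) were higher, beside 3.38% lower and 3.84% higher among all probe sets. The groups did not overlap for 7 member probe sets on the lower side (6.19%) and 4 on the higher side (3.54%), beside 6.54% and 6.55% over all. These shares lie near the background. With each gene at its brightest tested probe set, 31 of 47 members had a negative log2 difference (Ezh2 deficient minus Ezh2 fl/fl) and 16 a positive one, with a median of -0.023. Over all 12275 genes tested, 53.1% were negative and the median was -0.010. At an unadjusted p under 0.05, 3 members were lower and 1 higher on their brightest probe sets, where 4.29% of all genes were lower and 3.92% higher.

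The intervals, taken after quantile normalisation, show what size of change these arrays could have missed on that scale. The 95% confidence interval of the difference came from limma and was not adjusted for the number of genes. It lay within a change of 1.5-fold in either direction for 45 of the 47 members (95.7%), against 78.4% of all genes tested. It lay within 1.2-fold for 32 of them (68.1%), against 19.4% of all genes tested. Most members are bright, with 39 of 47 among the brightest 2455 of the 12275 genes tested. The exceptions at 1.5-fold were Cap1 and Vcl, where the control arrays disagreed among themselves. The intervals depend on the scaling. With median centring, those of Arpc1a (-0.11 to 0.67) and Ssh2 (0.06 to 0.60) also passed the 1.5-fold bound of 0.585. The interval of Actb reached 0.33 under the deposited scaling and 0.51 with median centring, beyond the 1.2-fold bound of 0.263.

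**Figure D1:**
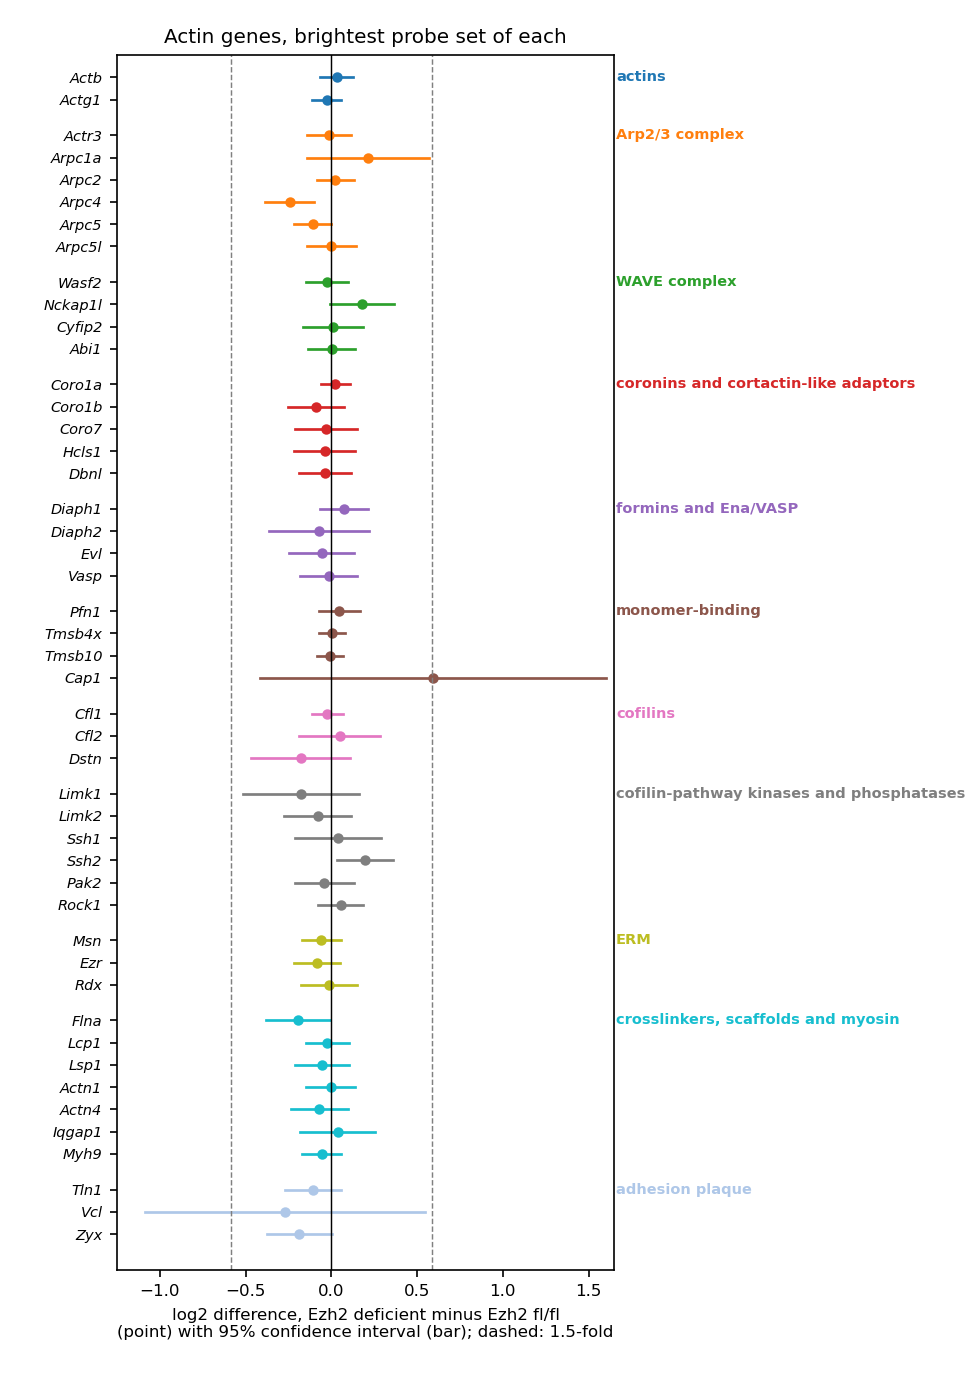
Log2 difference (horizontal axis, Ezh2 deficient minus Ezh2 fl/fl) of the 47 tested members, each at its brightest probe set, grouped by role; points are differences over 3 arrays per group, bars 95% confidence intervals, and dashed lines mark a 1.5-fold change. After quantile normalisation, the scale shown, 45 intervals lie between the dashed lines and those of Cap1 and Vcl are the wide ones.

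The filament subunits themselves showed no difference beyond the spread between arrays after quantile normalisation. Actb, which encodes beta-actin, gave 24920, 26932 and 26766 in the controls and 27539, 26336 and 26436 in the deficient arrays, with overlapping groups. Its log2 difference was 0.03 (SE 0.04, 95% interval -0.07 to 0.13, limma adjusted p = 0.899). Without Ezh2 fl/fl replicate 1 it was -0.0037. The other Actb probe set was at 0.12. Actg1, which encodes gamma-actin, was at -0.03 (95% interval -0.11 to 0.06). Under the deposited scaling and with median centring, Actb was at 0.12 and 0.21 and Actg1 at 0.06 and 0.15. The other Actb probe set was then at 0.17 and 0.25, the latter with a 95% interval of 0.006 to 0.50.

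The monomer-binding genes Pfn1, Tmsb4x and Tmsb10 differed as little after quantile normalisation. Pfn1 encodes profilin, which feeds monomers to growing ends, and was at 0.05 (95% interval -0.07 to 0.16). The thymosins Tmsb4x and Tmsb10, which sequester monomers, were at 0.01 and -0.01. Under the deposited scaling Pfn1, Tmsb4x and Tmsb10 were at 0.11, 0.10 and 0.08, and with median centring at 0.19, 0.19 and 0.16. With median centring every deficient array was above every control array for Pfn1, while the groups overlapped for the thymosins. Cap1, an adenylyl cyclase-associated protein that recycles monomers from cofilin, stood out through a single array. Its brightest probe set gave 2244, 9210 and 9309 in the controls and 8869, 8833 and 8564 in the deficient arrays, so that Ezh2 fl/fl replicate 1 was low and the other 5 arrays were alike. The second Cap1 probe set gave 2181, 8211 and 7812 in the controls and 7108, 7541 and 7304 in the deficient arrays, the same pattern. On replicate 1 the signals were 25.1% and 28.7% of the mean of the other 5 arrays. The log2 difference of Cap1 was 0.59 (SE 0.45, adjusted p = 0.803) with all arrays and -0.08 (SE 0.05, adjusted p = 0.776) without that array. On Ezh2 fl/fl replicate 1, 69 of all tested probe sets (0.255%) lay over 2-fold below each of the other 5 arrays, and on the other arrays 15 to 31 did. The 2 Cap1 probe sets were the only member probe sets among the 69.

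The Arp2/3 complex held the member gene with the smallest p, Arpc4, a subunit at the core of the complex. Its brightest probe set gave 4748, 4922 and 4591 in the controls and 3821, 4249 and 3975 in the deficient arrays, with every deficient array below every control array. The log2 difference was -0.24 (SE 0.06, 95% interval -0.39 to -0.10, limma adjusted p = 0.520), and the other Arpc4 probe set was at -0.12 with overlapping groups. Arpc5, another subunit, gave 8482, 8869 and 8564 in the controls and 7831, 8156 and 8034 in the deficient arrays. The groups did not overlap, but the difference was small at -0.11 (SE 0.05, adjusted p = 0.692), and under the deposited scaling they overlapped. The actin-related Actr3 and the subunits Arpc2 and Arpc5l were at -0.01, 0.02 and -0.0002. The dimmer probe sets of Arpc5l disagreed, at 0.21 and -0.30. Arpc1a, a WD-repeat subunit, gave 575, 912 and 882 in the controls and 887, 936 and 894 in the deficient arrays. Its difference of 0.21 (adjusted p = 0.796) rested on Ezh2 fl/fl replicate 1 and was 0.01 without it. Of the 6 tested genes of the complex, 4 were lower and 2 higher, with a median of -0.0065. Under the deposited scaling 2 were lower and 4 higher.

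Genes that switch on the Arp2/3 complex or bind beside it were also close to level. In the WAVE complex, Nckap1l, the haematopoietic scaffold also called Hem1, gave 1877, 1776 and 2016 in the controls and 2287, 2167 and 1991 in the deficient arrays. After quantile normalisation the groups overlapped in 1 array each, at a log2 difference of 0.18 (SE 0.08, limma adjusted p = 0.697). The other Nckap1l probe set was at -0.11. Under the deposited scaling and with median centring the brighter probe set was at 0.20 and 0.28, with every deficient array above every control array. The other was then at -0.10 and -0.01. Wasf2, Cyfip2 and Abi1, the remaining tested WAVE genes, lay between -0.02 and 0.01 after quantile normalisation. Among the coronins and cortactin-like adaptors, Coro1a, the main coronin of leukocytes, was at 0.02 (95% interval -0.06 to 0.11). Coro1b gave 1749, 1737 and 1729 in the controls and 1586, 1714 and 1599 in the deficient arrays, without overlap but at a difference of only -0.09 (adjusted p = 0.819). Coro7 was at -0.03 on its brightest probe set and at -0.19 on another, where the groups did not overlap. Hcls1, the haematopoietic relative of cortactin, and the drebrin-like adaptor Dbnl were both at -0.04.

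Formins and Ena/VASP proteins extend filaments at their fast-growing ends. Diaph1, the formin mDia1, gave 3074, 3028 and 2926 in the controls and 3168, 3233 and 3108 in the deficient arrays. Every deficient array was above every control array, yet the log2 difference was 0.07 (SE 0.06, adjusted p = 0.822). A second Diaph1 probe set went the other way without overlap, at -0.20, so the gene has no common direction over its probe sets. Diaph2, Evl and Vasp were at -0.07, -0.06 and -0.02.

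Cofilins cut filaments, and their switch genes showed values in both directions. Cfl1, the main cofilin of non-muscle cells, was at -0.02 (95% interval -0.11 to 0.07), and Cfl2 was at 0.05. Dstn, which encodes destrin, gave 429, 556 and 442 in the controls and 380, 409 and 453 in the deficient arrays, an overlapping difference of -0.18 (SE 0.13, adjusted p = 0.791). Ssh2, a slingshot phosphatase that activates cofilin, gave 5058, 5581 and 5763 in the controls and 6493, 5799 and 6530 in the deficient arrays. Every deficient array was above every control array, with a log2 difference of 0.20 (SE 0.07, 95% interval 0.04 to 0.36, adjusted p = 0.636), while its other probe set was at 0.02. Without Ezh2 fl/fl replicate 1 the Ssh2 difference was 0.14. Limk1, a kinase that inactivates cofilin, gave 459, 450 and 336 in the controls and 347, 416 and 319 in the deficient arrays, an overlapping difference of -0.18 (SE 0.15, adjusted p = 0.828). Limk2 was at -0.08 (adjusted p = 0.873), Ssh1 at 0.04, and the kinases Pak2 and Rock1, which act upstream of the LIM kinases, at -0.04 and 0.05. Ssh2 was positive and Limk1 and Limk2 negative in all 9 fits that changed the scaling or left out an array. These fits share arrays, Limk2 was only at -0.0013 with median centring, and Ssh1 had both signs. The mean over all Limk2 probe sets was at 0.083, and none of these genes passed after adjustment.

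**Figure D2:**
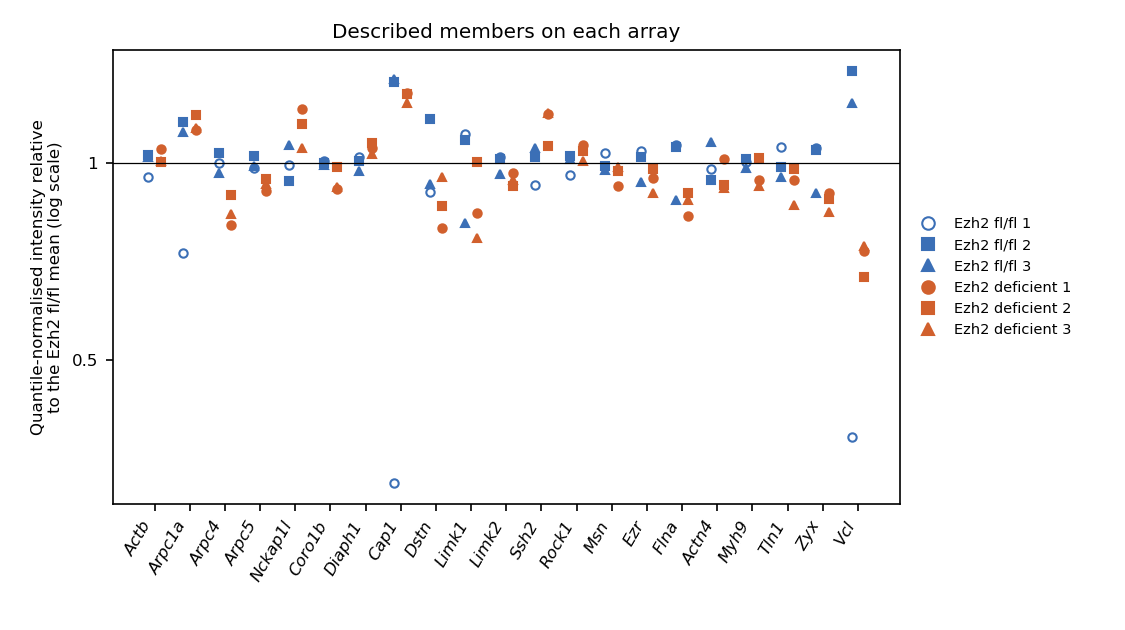
Quantile-normalised intensity of each described member on each of the 6 arrays, relative to the mean of the 3 Ezh2 fl/fl arrays (vertical axis, log scale); blue symbols are control arrays, orange symbols deficient arrays, and the open circle is Ezh2 fl/fl replicate 1. Most members lie near 1 on every array, while the open circle falls far below the other arrays for Cap1 and Vcl.

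The ERM genes link filaments to the membrane, and all 3 were slightly lower on their brightest probe sets, although 2 were higher under the deposited scaling and 3 with median centring. Moesin, encoded by Msn and a main ERM protein of T cells, gave 11680, 11176 and 11017 in the controls and 10407, 10999 and 11145 in the deficient arrays. The groups overlapped, at a difference of -0.06 (SE 0.05, adjusted p = 0.829), and Rdx, which encodes radixin, was at -0.01. Ezr, which encodes ezrin, gave 8499, 8341 and 7623 in the controls and 7726, 7984 and 7345 in the deficient arrays, a difference of -0.08 (SE 0.06, adjusted p = 0.788).

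A second, dimmer Ezr probe set had the smallest p of all member probe sets and was singled out after its values were seen. It gave 1171, 788 and 933 in the controls and 556, 613 and 557 in the deficient arrays. Every deficient array was below every control array, with a log2 difference of -0.69 (SE 0.14, 95% interval -1.0 to -0.38, limma adjusted p = 0.347). Its interval does not overlap that of the brighter Ezr probe set, which runs from -0.22 to 0.05. Its name ends in _x_at, which marks probe sets whose probes can match other transcripts, so the signal may not all be ezrin mRNA. The difference was -0.55 without Ezh2 fl/fl replicate 1.

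Among crosslinkers, scaffolds and the motor gene, 6 of 7 were lower, with a median of -0.05, but 4 of 7 under the deposited scaling and 1 of 7 with median centring. Flna, which encodes filamin A, a crosslinker that builds orthogonal filament networks, gave 5572, 5529 and 4587 in the controls and 4346, 4716 and 4593 in the deficient arrays. The third control array was as low as the deficient ones, and the log2 difference was -0.19 (SE 0.08, adjusted p = 0.681). The bundler Lcp1 was at -0.02, the leukocyte-specific Lsp1 at -0.05 and the scaffold Iqgap1 at 0.04. Actn4, an alpha-actinin, was at -0.07 (adjusted p = 0.867). Actn1, the other alpha-actinin, was at -0.004 on its brightest probe set and at 0.22 without overlap on a dimmer probe set that can match several transcripts. Myh9, the heavy chain of non-muscle myosin IIA, was at -0.06 (adjusted p = 0.835) and was lower on all 5 of its tested probe sets.

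The adhesion plaque genes had the lowest subgroup median, -0.19, and all 3 were lower, as under the deposited scaling, while with median centring Tln1 was at 0.013. Zyx, which encodes zyxin, gave 2242, 2228 and 1913 in the controls and 1915, 1873 and 1790 in the deficient arrays. The lowest control array was just below the highest deficient array, and the log2 difference was -0.19 (SE 0.08, adjusted p = 0.693). Its other, dimmer probe set was at 0.17. Tln1, which encodes talin, the protein that couples integrins to actin, gave 3746, 3485 and 3372 in the controls and 3329, 3460 and 3048 in the deficient arrays, a difference of -0.11 (SE 0.07, adjusted p = 0.781).

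Vcl, which encodes vinculin, depended, like Cap1, on a single array. It gave 182, 661 and 591 in the controls and 351, 320 and 357 in the deficient arrays, so that 2 control arrays were above, and 1 below, all deficient arrays. With all arrays the log2 difference was -0.27 (SE 0.36, adjusted p = 0.896). On Ezh2 fl/fl replicate 1 its signal was 40% of the mean of the other 5 arrays. Without that array the difference was -0.81 (SE 0.12, limma adjusted p = 0.186). In that fit 8 member probe sets were lower at an unadjusted limma p under 0.05, a larger share than the 3.28% of all probe sets. On the higher side 0 were under that p, beside 3.67% of all. By limma 0 members passed after adjustment in it, beside 0.0111% of all. Vcl was singled out after its values were seen.

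**Figure D3:**
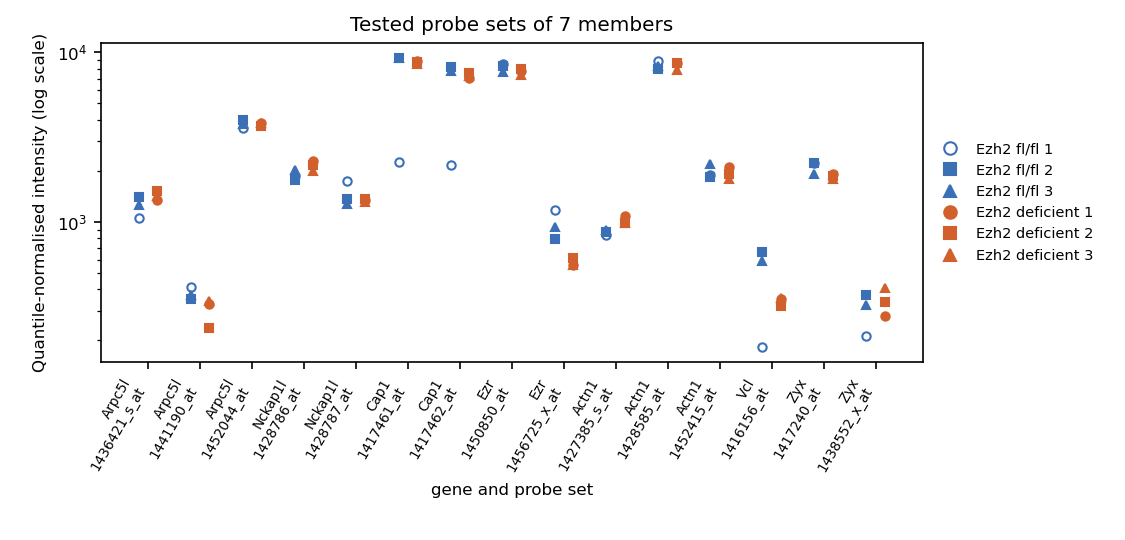
Quantile-normalised intensity (vertical axis, log scale) of every tested probe set of 7 members on the 6 arrays; blue symbols are the 3 Ezh2 fl/fl arrays, orange symbols the 3 deficient arrays, and the open circle is Ezh2 fl/fl replicate 1. Both Cap1 probe sets show the low open circle, whereas the groups separate on the dimmer Ezr probe set and overlap on the brighter Ezr probe set.

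Probe sets of the same gene often pointed in different directions. Of 33 members with several tested probe sets, 9 were lower on all, 3 were higher on all and 21 had both signs. The 21 were Arpc2, Arpc5l, Nckap1l, Cyfip2, Abi1, Coro1a, Coro7, Diaph1, Diaph2, Evl, Tmsb10, Cfl2, Limk2, Ssh1, Pak2, Rock1, Rdx, Actn1, Iqgap1, Tln1 and Zyx. The median range between the lowest and highest difference of a gene was 0.17. The widest range was in Tmsb10, where a dim probe set at -0.67 varied from 43.5 to 1081 between arrays.

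The direction of the whole set turned with the scaling between arrays. Under the deposited scaling 19 of 47 members were lower, beside 54.7% of all genes, and with each array centred on its median 8 of 47 were, beside 35.8%. The median difference of the members was 0.022 and 0.106 under these scalings, beside -0.018 and 0.060 for all genes. At an unadjusted p under 0.05, 3 member probe sets were lower and 3 higher under the deposited scaling (4.01% and 3.35% of all), and 1 was lower and 4 higher with median centring (1.85% and 6.32%). By limma 0 members passed after adjustment under either, where 0.0111% and 0.0074% of all probe sets did. Under the deposited scaling the median difference ran from -0.09 over the 2455 dimmest genes to 0.03 over the 2455 brightest, where most members lie. The member median on Ezh2 fl/fl replicate 1, relative to the control mean, was -0.03 after quantile normalisation, -0.07 under the deposited scaling and -0.17 after median centring. The part of that array in the turn was not tested. Over the 3 scalings and the 6 fits that left out an array, 6 members were always lower, 7 always higher and 34 had both signs. The 6 were Arpc4, Dstn, Limk1, Limk2, Flna and Zyx, and the 7 were Arpc1a, Nckap1l, Coro1a, Diaph1, Pfn1, Ssh2 and Rock1.

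**Figure D4:**
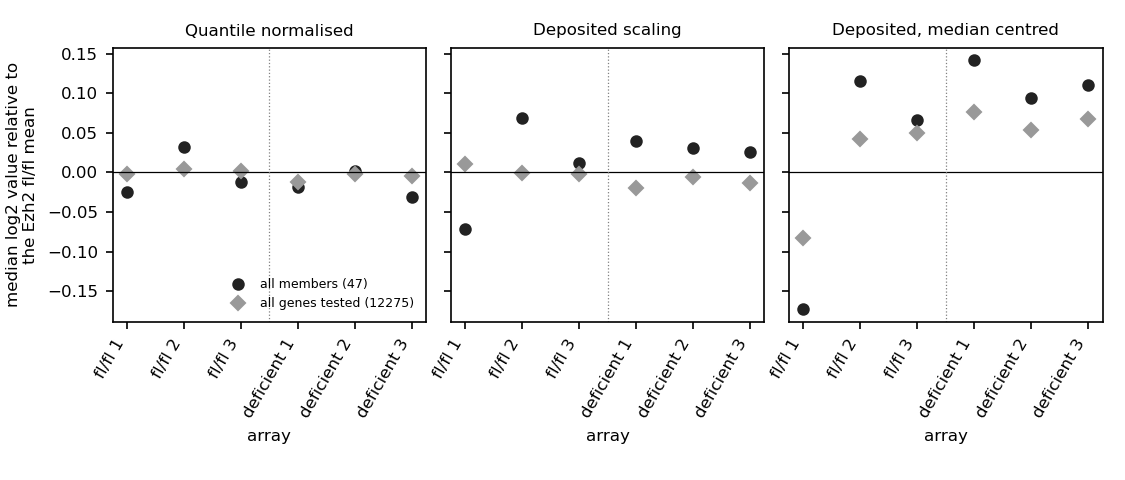
Median log2 value on each array relative to the mean of the 3 Ezh2 fl/fl arrays (vertical axis), for the 47 tested members (black circles) and for all genes tested (grey diamonds), in a panel for each scaling. After quantile normalisation every array lies within 0.04 of 0, whereas the members on Ezh2 fl/fl replicate 1 lie at -0.07 under the deposited scaling and at -0.17 after median centring.

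Other genes of the actin pathway gave a similar picture with a few larger values. Of 61 tested genes on a wider list, 37 were lower and 24 higher, and the median was -0.019. This tally also turned with the scaling, to 31 lower and 30 higher under the deposited scaling and 14 lower and 47 higher with median centring. By limma 0 of their 150 probe sets passed over all probe sets, and 9 (6%) were lower and 8 (5.33%) higher at an unadjusted p under 0.05, beside 3.38% and 3.84% over all. Capg, which caps filament ends, had the smallest p at a log2 difference of -0.88 (adjusted p = 0.248). Pfn2, a second profilin, gave means of 284 ± 19.0 (SD, controls) and 437 ± 18.7 (SD, deficient; log2 difference 0.56, SE 0.11, adjusted p = 0.347). The other Pfn2 probe sets were at 0.79 and 0.50, and on all 3 every deficient array was above every control array, while the member Pfn1 was at 0.05. The remaining genes with the smallest p on the lower side were the monomer-binding Twf2 at -0.20, the filament-binding Ablim1 at -0.62 and the myosin Myo9b at -0.19. On the higher side they were Fscn1 at 1.18, the Rac regulator Elmo1 at 0.14 and the formin Daam1 at 0.22. By limma the adjusted p of these 6 genes ran from 0.619 to 0.731. The other tested probe sets of Twf2 (0.03) and Myo9b (0.21 and 0.20) were higher, so these genes have no common direction. Those of Ablim1 were lower, at -0.56 and -1.07. The Fscn1 groups overlapped, at 164, 839 and 435 in the controls and 1349, 764 and 865 in the deficient arrays, and its difference was 0.64 without Ezh2 fl/fl replicate 1. Its other tested probe set was at 0.20. Without that array Elmo1 was at 0.09, while Capg was at -0.84 and Pfn2 at 0.56. With all arrays, the other tested Elmo1 probe sets were at 0.18 and 0.41, the latter with every deficient array above every control array. The other tested probe set of Daam1 was at 0.37 and that of Capg at -0.45.

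Promoters of the members were read from RefSeq on GRCm38.p6, as 250 bases before to 50 after each gene start, and 45 of the 54 members matched. Actb and the other members without a match were not searched. The CArG box, the site of serum response factor, which controls many actin genes, was searched as its strict consensus, which reads the same on both strands. It stood in the promoters of 3 members (6.67%), against 1.48% of genes tested on the arrays and 1.81% of all genes. These 3 are shown because they are the searched member promoters that hold the box, which is in capitals with the flanks in lower case. Each is read 5′ to 3′ on the strand of its gene. The 3 stretches are on chr11:120348551-120348610 (minus strand) for Actg1, chr6:113377863-113377897 (plus strand) for Arpc4 and chr14:20929148-20929205 (plus strand) for Vcl. Those of Arpc4 and Vcl begin at the edge of the promoter window.
Actg1: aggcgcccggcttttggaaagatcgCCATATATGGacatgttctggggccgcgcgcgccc
Arpc4: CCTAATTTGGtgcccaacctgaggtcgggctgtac
Vcl: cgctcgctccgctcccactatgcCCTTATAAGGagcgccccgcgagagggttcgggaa

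The log2 differences of Actg1, Arpc4 and Vcl, given above, were all negative after quantile normalisation, as were those of 24 of 36 tested members whose promoters lacked the box. Actg1 was at 0.06 under the deposited scaling and at 0.15 with median centring, while Arpc4 and Vcl were negative under both. The promoters of the members were rich in CpG, with a median observed over expected ratio of 0.806 against 0.741 for genes tested on the arrays and 0.389 for all genes. A match of letters is a description of the sequence, and no binding was measured here.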

How the data were processed

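Total RNA of 6 samples was read on single-colour mouse arrays with probe set names of the Affymetrix type. The authors deposited intensities on a linear scale for 45101 probe sets. Their software is not given in the sources used here. On these values the mean without 2% at each end was 500.002 on every array, while medians differed by 15.2%. The deposited intensities were quantile normalised and turned into log2(intensity + 43.4), the offset being the 20th percentile of positive values, so fold changes of dim probe sets are understated. The 64 control probe sets and those below the 40th percentile of mean log2 were left out, which left 27022. Differences were tested with limma 3.58.1 in R 4.3.3 (lmFit and eBayes with an intensity trend, two-sided, 4 residual degrees of freedom) and adjusted by Benjamini-Hochberg over all 27022. The number of arrays limits the precision. The test was tried on simulated data.

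With controls set aside, 34945 probe sets carried a single gene symbol, 932 several and 9160 none; 34741 matched RefSeq by gene identifier and 0 symbols changed. The members, the wider actin list, the marker lists and the naming rule were chosen with earlier results of these data known. By that rule full values go to members with an unadjusted p under 0.05 or groups apart under both scalings, the smallest p of each role, filled up to 20; members whose probe sets differ in sign are also named, as are the 4 other actin genes of smallest p per direction, and genes outside it are marked as singled out. Alternatives were other scalings, offsets, filters and variance models, array weights, uniquely matching probe sets, gene means, and leaving out each array.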

Additional observations from a re-analysis of the deposited data

How the results depend on the processing

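No paired analysis was possible because the labels give the groups no shared replicate numbers. No member probe set and no probe set of the wider actin list was called under any of the alternatives run, and Ezh2 was lower at an unadjusted p under 0.05 in all of them, with a limma adjusted p from 0.0306 to 0.263. The count of 5 member probe sets lower at an unadjusted p under 0.05 was 3 under the deposited scaling, 1 with median centring and 2 by eBayes without trend (3.39% of all probe sets). The count of 2 higher was 4 with median centring and 1 by eBayes without trend (3.9% of all) or without _s_at and _x_at probe sets (3.95%). The 31 members lower became 19 under the deposited scaling and 8 with median centring, and the median of -0.023 became 0.022 and 0.106. Leaving out 1 array gave 2 to 8 probe sets lower, 0 to 4 higher, 22 to 34 members lower and a median of -0.045 to 0.0061, with the extremes of the last 2 at Ezh2 fl/fl replicates 1 and 2. In these fits 2.86% to 3.59% of all probe sets were lower, 2.55% to 4.61% higher, and 51.3% to 53.5% of all genes were lower. The count lower was 8 with control array 1 left out, 2 with control array 2 or deficient array 2 left out, and 3 with deficient array 1 or 3 left out. The count higher was 0 with control array 1 or deficient array 1 left out, 4 with control array 3 and 3 with deficient array 3 left out. Of all 47 members, 12 had another sign under the deposited scaling and 23 with median centring. Among the 20 members picked by the naming rule, the sign turned for Msn at 0.0065 under the deposited scaling. With median centring it turned among these for Arpc5 at 0.011, Coro1b at 0.0062, Msn at 0.091, Ezr at 0.048, Actn4 at 0.053, Myh9 at 0.073 and Tln1 at 0.013. When a gene's probe sets were averaged it turned for Diaph1 at -0.027 and Limk2 at 0.083, and without Ezh2 fl/fl replicate 1 for Actb and Cap1, whose ranges over the arrays left out were -0.0037 to 0.049 and -0.082 to 0.93. The causes were not tested.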
